A study of Mus musculus with 8 samples.

Results

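The genes described here encode subunits and assembly factors of the proteasome (symbols starting with Psma, Psmb, Psmc or Psmd and a digit, without Psmb10) and enzymes that attach or remove ubiquitin (symbols starting with Ube2, with Usp and a digit, or with Ubr). Membership was set by symbol, but the set was chosen with earlier results of these data known. Of 8741 genes named on the arrays, 77 carry such a symbol, 32 for the proteasome and 45 for the ubiquitin enzymes, and these 77 were read by 113 probes. The ubiquitin enzymes comprise 18 Ube2 genes, 26 Usp genes and 1 Ubr gene, Ubr7. One of the 32 proteasome symbols, Psmc3ip, belongs to a recombination cofactor that is named after its binding partner and is no subunit. It is given apart from the roles of the subunits but stays in the counts and medians of proteasome genes.

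Lung RNA of 4 male mice transgenic for Fra-2, the AP-1 transcription factor encoded by Fosl2, was hybridised against a single pool that combined the lung RNA of 4 male wild-type animals. All animals were 14 weeks old and of mixed C57BL6 x CBA background, and the labels do not give the promoter that drives the transgene. Each transgenic mouse was measured on a pair of arrays of opposite dye orientation, for 8 in total. Animals of other ages in the study are not analysed here. Values below are log2 ratios of transgenic lung over the pool, averaged over the 2 arrays of a mouse, and a mean is given with its SD over the 4 mice. This direction is likely only: it was read from which channel the labels list first, and no probe is named Fosl2, so the transgene itself was not checked. Ratios give no absolute level, so the labelled tissue could not be checked through its markers. A gene was called higher or lower where limma's test of the mean ratio against 0 gave an adjusted p under 0.05 over all 8692 genes tested. The pool counts as 1 control sample, so the test leaves out the spread among wild-type animals.

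The proteasome is the barrel-shaped protease that degrades proteins tagged with ubiquitin. Its 20S core has outer rings of alpha subunits that gate the channel and inner rings of beta subunits, some of which cut peptide bonds, and its 19S cap binds tagged proteins, removes the tag and unfolds them. E1, E2 and E3 enzymes act in turn to attach ubiquitin, deubiquitinases such as the Usp family take it off, and cells exposed to interferon swap catalytic beta subunits for inducible ones, which shape the peptides shown on MHC class I.

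One array stood apart before any gene was considered. On the array with mouse 4 in Cy3 the log2 ratios had an SD of 0.768, against 0.413 to 0.457 on the other arrays, and 15.3% of its values lay beyond 1 in size, against 2.25% to 3.36%. The correlation over probes between the Cy5 and the Cy3 array was 0.685, 0.642, 0.587 and 0.389 in mice 1 to 4. Usable ratios numbered 20585 to 20729 per array, and array medians lay between -0.09 and 0.01. Among the marker lists, set against 13.5% of all genes called higher and 18.4% called lower, 4 of 4 B cell markers and 11 of 13 cell cycle genes were called higher. Of macrophage markers 5 of 9 were called higher and 2 lower, and 9 of 10 cardiac and skeletal muscle markers, 5 of 6 fat markers and 3 of 4 alveolar type 1 markers were called lower. Calls were mixed for 7 neutrophil (3 higher, 2 lower), 5 T and NK cell (2 and 1) and 11 interferon and MHC class I genes (3 and 2). Of 3 alveolar type 2 markers 1 was called higher, and of 2 club and 2 erythroid markers 1 each lower. None of 4 ciliated and 4 endothelial markers was called. In bulk lung, fewer cells of a type and less RNA per cell cannot be told apart.

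Promoter windows are shown for 6 members on which the results turn, picked after their values were seen: the called subunit with the highest mean (Psmd13), a pair of constitutive catalytic subunits (Psmb5, called higher, and Psmb6, not called), the deubiquitinating subunit of the cap (Psmd14, called lower), the inducible subunit that differed between mice (Psmb8) and the called member with the lowest mean (Usp25). Each window runs from 250 bases before to 50 bases after the annotated start, 5′ to 3′, from RefSeq on GRCm38.p6. Capitals mark matches on either strand to TGACNNNGC, the core of the antioxidant response element that Nfe2l1 and Nfe2l2 bind, to TGACTCA, an AP-1 element, which followed by GC is also a match to the first motif, or to CCAAT, which reads ATTGG on the other strand.
Psmd13 (chr7:140882144-140882443, plus strand): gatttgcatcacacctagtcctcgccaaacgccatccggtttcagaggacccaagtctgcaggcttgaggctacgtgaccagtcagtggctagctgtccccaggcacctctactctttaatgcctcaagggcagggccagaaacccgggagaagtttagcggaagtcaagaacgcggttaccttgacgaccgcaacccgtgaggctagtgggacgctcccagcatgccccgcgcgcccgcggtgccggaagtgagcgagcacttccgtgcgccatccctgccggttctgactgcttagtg
Psmb5 (chr14:54617946-54618245, minus strand): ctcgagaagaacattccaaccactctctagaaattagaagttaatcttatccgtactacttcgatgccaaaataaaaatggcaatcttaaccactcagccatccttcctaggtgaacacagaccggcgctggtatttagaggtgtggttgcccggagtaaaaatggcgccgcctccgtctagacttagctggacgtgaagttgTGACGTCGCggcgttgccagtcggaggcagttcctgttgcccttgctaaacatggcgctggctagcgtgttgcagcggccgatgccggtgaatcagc
Psmb6 (chr11:70525107-70525406, plus strand): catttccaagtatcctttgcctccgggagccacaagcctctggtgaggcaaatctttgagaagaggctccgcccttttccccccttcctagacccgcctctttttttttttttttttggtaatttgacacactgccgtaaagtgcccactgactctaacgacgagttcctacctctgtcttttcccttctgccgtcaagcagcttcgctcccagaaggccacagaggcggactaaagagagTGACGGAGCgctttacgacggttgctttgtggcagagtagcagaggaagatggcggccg
Psmd14 (chr2:61711444-61711743, plus strand): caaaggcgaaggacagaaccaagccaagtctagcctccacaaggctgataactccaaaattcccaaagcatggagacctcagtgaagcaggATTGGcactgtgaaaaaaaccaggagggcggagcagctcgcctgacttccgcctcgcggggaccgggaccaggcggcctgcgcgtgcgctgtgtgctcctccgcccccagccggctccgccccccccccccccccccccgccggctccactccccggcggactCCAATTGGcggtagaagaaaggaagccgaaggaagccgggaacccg
Psmb8 (chr17:34197945-34198244, plus strand): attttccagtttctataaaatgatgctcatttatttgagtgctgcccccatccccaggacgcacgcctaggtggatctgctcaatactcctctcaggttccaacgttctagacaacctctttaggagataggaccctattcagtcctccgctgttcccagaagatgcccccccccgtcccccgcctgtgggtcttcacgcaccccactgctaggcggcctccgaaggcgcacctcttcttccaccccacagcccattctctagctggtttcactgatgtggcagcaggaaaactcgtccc
Usp25 (chr16:77013819-77014118, plus strand): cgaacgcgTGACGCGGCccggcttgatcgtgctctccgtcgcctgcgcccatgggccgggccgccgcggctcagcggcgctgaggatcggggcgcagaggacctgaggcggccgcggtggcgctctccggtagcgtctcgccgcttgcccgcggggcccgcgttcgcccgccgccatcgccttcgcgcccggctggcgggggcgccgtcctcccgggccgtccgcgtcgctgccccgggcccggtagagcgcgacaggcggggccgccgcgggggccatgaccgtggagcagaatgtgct

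The windows of Psmb5, Psmb6 and Usp25 each held 1 TGACNNNGC match, at 47, 9 and 242 bases before the start. That of Psmd14 held 3 matches to CCAAT, one 159 bases before the start and the others 4 and 7 bases after it, where they overlap. Those of Psmd13 and Psmb8 held none of the 3 motifs. Psmb5 and Psmb6 thus shared a motif while only Psmb5 was called. Over the 63 members found in the promoter table, TGACNNNGC occurred in 4 of 27 proteasome genes and 6 of 36 ubiquitin enzyme genes, against 14.0% of all 27025 genes in the table (12.4% of 32851 windows). TGACTCA occurred in 1 of 27 and 4 of 36, against 5.95% of all genes (5.20% of windows), and CCAAT in 12 of 27 and 10 of 36, against 41.1% (37.4% of windows). A match is a run of letters and says nothing of binding.

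Of the 31 proteasome genes tested, 13 were called, 5 higher and 8 lower in transgenic lung (41.9%), against 31.9% of all genes tested (13.5% higher and 18.4% lower). The calls went both ways within the same complex. The median ratio over the 31 genes was -0.10, with the middle 50% of genes between -0.31 and 0.09, against a median of -0.01 over all genes. Of the 45 ubiquitin enzyme genes, 12 were called, 5 higher and 7 lower (26.7%), a share below that of all genes, with a median of -0.03. Over all 76 members tested the share was 32.9%, close to that of all genes. The counts depended on which mouse was left out: the 13 proteasome calls became 6, 4, 9 and 11 without mice 1, 2, 3 and 4, and the 12 ubiquitin enzyme calls became 6, 6, 8 and 7. Split by direction, the 5 higher proteasome calls became 1, 1, 2 and 6 in those fits, and the 8 lower ones 5, 3, 7 and 5. Fewer mice enter each of those fits, and the share of all genes called in them is not given here. The drops therefore cannot be read as a trait of these members or of a given mouse. Of the 25 called members, 18 had the same sign on all 8 arrays, and 9 were called whichever mouse was left out: Psmb4, Psmb7, Psmd7, Psmd13, Ube2b, Ube2j2, Usp5, Usp26 and Usp54. The 25 had passed the test of the mean on these same arrays, which by itself makes a shared sign and a lasting call likely. The matching shares over all called genes are not given here.

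**Figure D1:**
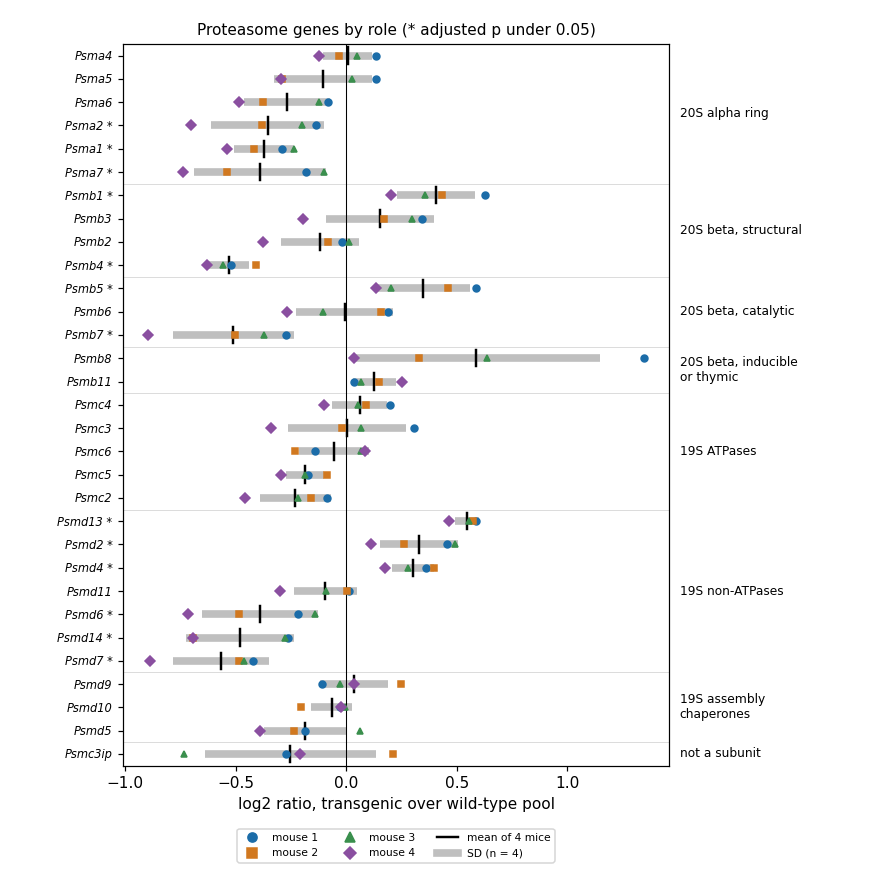
Log2 ratio of transgenic lung over the wild-type pool (x axis) for the 31 proteasome genes tested (y axis), grouped by role. Symbols are the 4 mice, black ticks their mean, grey bars 1 SD to each side, and a star marks an adjusted p under 0.05. Called genes lie on both sides of 0, from Psmd7 at -0.57 to Psmd13 at 0.54, and mouse 4 is the lowest of the 4 mice for 25 of the 31 genes.

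The alpha ring, which gates the core, held 3 genes called lower and none called higher among its 6 measured members, with a median of -0.31. Of all genes tested, 18.4% were called lower and 13.5% higher. Psma1 was -0.29, -0.42, -0.24 and -0.54 in mice 1 to 4, a mean of -0.37 ± 0.14 (SD, n = 4; limma adjusted p = 0.013), or 1.29-fold lower. Psma2 was -0.14, -0.38, -0.20 and -0.70 in the same order, and Psma7 -0.18, -0.54, -0.10 and -0.74. In both of these genes every mouse was below the pool, mice 2 and 4 further than mice 1 and 3. Psma7 averaged -0.39 ± 0.30 (adjusted p = 0.041) and Psma2 -0.36 ± 0.25 (adjusted p = 0.039). Of the 4 fits that left out a mouse, Psma2 was called in none and Psma7 in 1. The mean of Psma7 was -0.08 on the Cy5 arrays (adjusted p = 0.62) and -0.70 on the Cy3 arrays (adjusted p = 0.014). On the Cy5 arrays of mice 1 and 3 Psma7 read above the pool (0.14 and 0.18). Psma6 lay below 0 in every mouse as well, at -0.27 ± 0.19, but missed the threshold (adjusted p = 0.064). It was called in none of the 4 fits that left out a mouse. With the mouse as a random block over 8 arrays it passed (adjusted p = 0.025). That fit uses the same correlation between arrays of a mouse for every gene, so it can overstate replication where mice differ more than arrays. Psma5 (-0.11) and Psma4 (0.01) were above the pool in mice 1 and 3 and below it in mice 2 and 4.

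Among the 4 measured structural beta subunits, 1 was called higher and 1 lower, against 31.9% of all genes called. Psmb1 was 0.63, 0.43, 0.36 and 0.20 in mice 1 to 4, a mean of 0.41 ± 0.18 (adjusted p = 0.014), or 1.32-fold higher, and above 0 on all 8 arrays. Psmb4 was -0.52, -0.41, -0.56 and -0.63, a mean of -0.53 ± 0.09 (adjusted p = 0.0033). That value joins 2 probes that did not measure alike: one averaged -1.06 ± 0.17 and was called, the other -0.003 ± 0.13 and was not. Psmb3 (0.15) and Psmb2 (-0.12) were not called. For Psmb3 mice 1 to 3 lay between 0.17 and 0.34 and mouse 4 at -0.20, and without the Cy3 array of mouse 4 it was called higher (adjusted p = 0.049).

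The 3 constitutive catalytic subunits, which cut after different residues, gave 3 different readings. Psmb5, the chymotrypsin-like subunit, was 0.59, 0.46, 0.20 and 0.13 in mice 1 to 4, a mean of 0.35 ± 0.21 (adjusted p = 0.032), or 1.27-fold higher. Psmb7, the trypsin-like subunit, was -0.27, -0.50, -0.37 and -0.90, a mean of -0.51 ± 0.28 (adjusted p = 0.014), or 1.42-fold lower. Neither gene crossed 0 on any of the 8 arrays. Of the 4 fits that left out a mouse, Psmb5 was called in 1 and Psmb7 in all 4. On the Cy5 and Cy3 arrays alone Psmb5 was not called (adjusted p = 0.054 and 0.058), and Psmb7 was called on Cy3 only (0.055 and 0.014). Psmb6, the caspase-like subunit, was 0.19, 0.16, -0.11 and -0.27, with mice on both sides of the pool and a mean of -0.01 ± 0.22 (adjusted p = 0.96).

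Psmb8, the inducible subunit that takes the place of Psmb5 in the immunoproteasome, differed between mice. It was 1.35 in mouse 1, 0.33 in mouse 2, 0.63 in mouse 3 and 0.04 in mouse 4. Both arrays of mouse 1 (1.44 and 1.25) lay above both of mouse 3 (0.69 and 0.58), and these above the arrays of mice 2 and 4. The mean of 0.59 ± 0.56 missed the threshold (adjusted p = 0.054). It passed without the Cy3 array of mouse 4 (adjusted p = 0.042), on the Cy5 arrays alone (0.048) and without mouse 4 (0.045). It also passed with the mouse as a random block over 8 arrays (0.012). It did not pass on the Cy3 arrays alone (0.085), with extreme values kept (0.087) or with robust moderation (0.060). Nor did it pass without mouse 1, 2 or 3 (0.120, 0.086 and 0.115), and without mouse 1 the mean was 0.33. The difference between mice itself passed the F test (adjusted p = 0.021), and again on the 7 arrays left without that one (adjusted p = 0.030). H2-K1, an MHC class I gene that was not called (adjusted p = 0.051), was 1.22, 0.11, 0.79 and 0.16 in mice 1 to 4, likewise highest in mice 1 and 3. The medians of 11 interferon and MHC class I genes were 0.45, 0.11, 0.05 and -0.03 in mice 1 to 4, with 3 genes called higher and 2 lower, and those of 5 T and NK cell markers were 0.97, 0.16, 0.45 and 0.05. The part of these cells or of interferon in the Psmb8 values was not tested. Tap1, the peptide transporter encoded beside Psmb8, went the other way and was called lower (-0.59 ± 0.20, adjusted p = 0.0049). Psmb9, the inducible counterpart of Psmb6, could not be tested: its probe gave values only on the Cy5 arrays of mice 1, 3 and 4, at -0.72, 0.02 and -0.06. Psmb11, the thymic subunit, was not called (0.13 ± 0.10, adjusted p = 0.23).

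**Figure D2:**
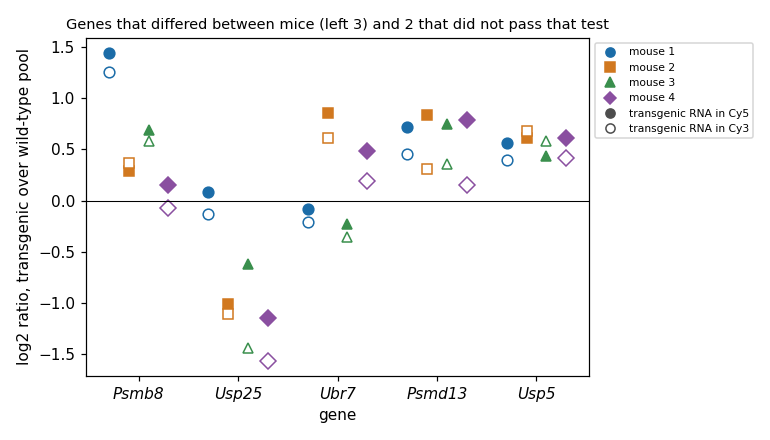
Log2 ratio of transgenic lung over the wild-type pool (y axis) on each of the 8 arrays for 5 genes (x axis). Colours and shapes are mice, filled symbols the arrays with transgenic RNA in Cy5, open symbols those with it in Cy3. Psmb8 runs from 1.44 in mouse 1 to -0.08 in mouse 4, Usp25 lies near 0 only in mouse 1, Ubr7 is above 0 in mice 2 and 4 and below it in mice 1 and 3, and all 8 arrays are above 0 for Psmd13 and Usp5.

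In the base of the 19S cap, none of the 5 measured ATPases, the motors that unfold substrates, was called, against 31.9% of all genes. Psmc2 (-0.23, adjusted p = 0.076) and Psmc5 (-0.19, adjusted p = 0.089) were below the pool in all 4 mice. Psmc6 (-0.06), Psmc3 (0.003) and Psmc4 (0.06) had mice on both sides of 0. The 95% interval of the mean, not adjusted for the number of genes, reached from -0.43 to -0.03 for Psmc2 and from -0.12 to 0.24 for Psmc4. With the 8 arrays fitted singly and the mouse as a random block, Psmc2 was called lower (adjusted p = 0.030). Psmc2 was called in none of the 4 fits that left out a mouse.

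Of the 7 measured non-ATPase subunits of the cap, 6 were called, 3 higher and 3 lower. Over all genes tested the share called was 31.9% (13.5% higher and 18.4% lower), and 7 genes are few for a comparison. Psmd13, a lid subunit, was 0.59, 0.57, 0.55 and 0.47 in mice 1 to 4, a mean of 0.54 ± 0.05 (adjusted p = 0.0025), or 1.46-fold higher. Psmd2, a scaffold of the base that receives ubiquitin-like carriers, was 0.46, 0.26, 0.49 and 0.11, and Psmd4, a ubiquitin receptor, 0.36, 0.39, 0.28 and 0.18. All 3 were above the pool in every mouse, with mouse 4 the lowest, but the dyes differed. Means on the Cy5 and Cy3 arrays were 0.77 and 0.32 for Psmd13, 0.57 and 0.09 for Psmd2, and 0.55 and 0.05 for Psmd4. On the Cy3 arrays alone none of them was called (adjusted p = 0.067, 0.64 and 0.78). Psmd2 and Psmd4 were each called in 1 of the 4 fits that left out a mouse. Psmd2 averaged 0.33 ± 0.18 (adjusted p = 0.028) and Psmd4 0.30 ± 0.10 (adjusted p = 0.021), both below 0 on the Cy3 array of mouse 4 alone (-0.27 and -0.32). With the mouse as a random block over 8 arrays Psmd4 was not called (adjusted p = 0.054).

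Psmd7 and Psmd14 form the pair of lid subunits that cuts ubiquitin chains off the substrate, and both were called lower. Psmd7 was -0.42, -0.49, -0.46 and -0.89 in mice 1 to 4, a mean of -0.57 ± 0.22 (adjusted p = 0.0063), or 1.48-fold lower. Psmd14, the catalytic member of the pair, was -0.26, -0.70, -0.28 and -0.69, a mean of -0.48 ± 0.24 (adjusted p = 0.013), or 1.40-fold lower. On all 8 arrays both genes were below 0. Psmd6, another lid subunit, was -0.22, -0.48, -0.14 and -0.72, again furthest from the pool in mice 2 and 4, with a mean of -0.39 ± 0.26 (adjusted p = 0.031). Psmd11 was not called (-0.10 ± 0.14, adjusted p = 0.40). Of the assembly chaperones, Psmd5 (-0.19), Psmd10 (-0.07) and Psmd9 (0.04) were not called, nor was Psmc3ip (-0.25 ± 0.39, adjusted p = 0.21).

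Mouse 4 had the lowest ratio of the 4 mice for 25 of 31 proteasome genes (80.6%), against 19 of 45 ubiquitin enzyme genes (42.2%) and 41.3% of all genes. On the Cy5 arrays alone, which leave out the array that stood apart, it was lowest for 17 of 31 (54.8%), against 33.3% of ubiquitin enzyme genes and 30.0% of all genes. The median of proteasome genes was -0.03, -0.08, -0.01 and -0.29 in mice 1 to 4, and that of the ubiquitin enzymes -0.03, -0.03, -0.01 and -0.07. The proteasome median minus the ubiquitin enzyme median was -0.003, -0.05, 0.008 and -0.22 in the 4 mice. It was 0.02, 0.05, 0.10 and -0.07 on the Cy5 arrays of mice 1 to 4, and -0.06, -0.15, -0.07 and -0.27 on their Cy3 arrays. Mouse 4 thus had the lowest difference of the 4 mice on either dye, and in every mouse the difference was lower on the Cy3 array. The proteasome median itself was 0.02, -0.04, 0.05 and -0.20 on the Cy5 arrays of mice 1 to 4. Over genes averaged across mice the difference was -0.06, but it was 0.04 on the Cy5 arrays alone and 0.003 without the Cy3 array of mouse 4, so its direction turned. Muscle markers, in contrast, were least reduced in mouse 4, with medians of -0.74, -0.87, -1.16 and -0.46, and their part in the class medians was not tested.

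**Figure D3:**
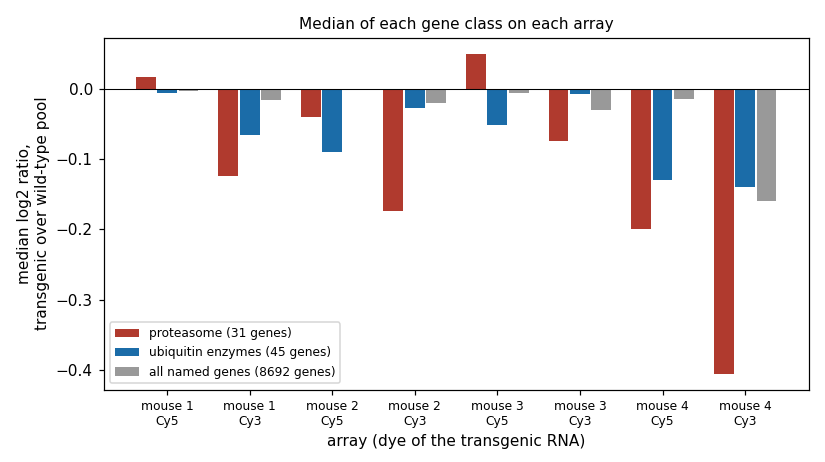
Median log2 ratio of transgenic lung over the wild-type pool (y axis) on each array (x axis, with the dye of the transgenic RNA) for 31 proteasome genes, 45 ubiquitin enzyme genes and all 8692 genes tested. In every mouse the proteasome median is lower on the Cy3 than on the Cy5 array, and it is lowest, at -0.41, on the Cy3 array of mouse 4.

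Most proteasome genes read higher with the transgenic RNA in Cy5. The Cy5 minus Cy3 difference within a mouse had a median of 0.19 over proteasome genes, above 0 for 24 of 31, against 0.06 over ubiquitin enzyme genes (26 of 45) and 0.09 over all genes (5457 of 8692). No gene passed the limma test of that difference over 8645 genes (0%), although 2309 genes, 27 of them members, had an unadjusted p under 0.05. The dye cancels in the mean of a mouse, since each mouse has both orientations. By dye, 8 of the 13 proteasome calls passed on the Cy5 arrays alone and 7 on the Cy3 arrays alone, and Psmb4, Psmd7 and Psmd14 passed on each. None of the 5 higher calls passed on the Cy3 arrays alone.

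Among the 18 E2 enzymes, which carry activated ubiquitin to its target, 2 were called higher and 2 lower. That is a share of 22.2%, against 31.9% of all genes. Ube2b, a homologue of yeast Rad6 that modifies histone H2B and acts in DNA damage tolerance, was -0.52, -0.49, -0.32 and -0.57 in mice 1 to 4, a mean of -0.47 ± 0.11 (adjusted p = 0.0051), or 1.39-fold lower. Its 3 probes averaged -0.51, -0.48 and -0.43, and each was called. The probes of Ube2k were less alike. Ube2k, which builds ubiquitin chains, averaged -0.27 ± 0.14 (adjusted p = 0.042) over probes at -0.54, -0.41 and 0.14, of which the first 2 were called. Its mice stood at -0.22, -0.21, -0.17 and -0.48.

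Ube2j2, an E2 of the endoplasmic reticulum membrane that serves the degradation of misfolded proteins, was 0.61, 0.34, 0.34 and 0.39 in mice 1 to 4, a mean of 0.42 ± 0.13 (adjusted p = 0.0088), or 1.34-fold higher. Ube2c, the E2 of the anaphase-promoting complex, was 0.34, 0.06, 0.37 and 0.37, a mean of 0.29 ± 0.15 (adjusted p = 0.036). Every mouse was above the pool in both genes, but the Ube2c value for mouse 4 joined -0.14 on the Cy5 array and 0.89 on the Cy3 array. Without the Cy3 array of mouse 4 Ube2c was not called (adjusted p = 0.26). The cell cycle genes had medians of 0.81, 0.59, 0.78 and 0.61 in mice 1 to 4, and their part in the Ube2c value was not tested. The 14 E2 genes not called ranged from -0.30 for Ube2d1 to 0.12 for Ube2a. Ube2n, which makes the chains used in immune signalling and DNA repair, was -0.32, -0.30, -0.47 and 0.02 in the 4 mice and was not called (adjusted p = 0.069). Only the Cy3 array of mouse 4 read above 0 (0.41), and without it Ube2n was called lower (-0.36, adjusted p = 0.0078). Ube2f, an E2 for the ubiquitin-like protein NEDD8, averaged 0.02 ± 0.12.

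Of the 26 deubiquitinases, 3 were called higher and 5 lower, a share of 30.8% against 31.9% of all genes, with a family median of -0.06. Usp5, which takes apart free ubiquitin chains, was 0.48, 0.65, 0.51 and 0.51 in mice 1 to 4, a mean of 0.54 ± 0.08 (adjusted p = 0.0030), or 1.45-fold higher. Usp26, known for its expression in testis, was 0.32, 0.57, 0.63 and 0.85, a mean of 0.59 ± 0.21 (adjusted p = 0.0053). These 2 genes stood above the pool on all 8 arrays and were called on either dye alone. Usp8, which acts on receptors sorted at endosomes, was 0.20, 0.30, 0.44 and 0.26, a mean of 0.30 ± 0.10 (adjusted p = 0.022) over probes at 0.42, which was called, and 0.17, which was not.

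The lowest mean of any called member was that of Usp25, a deubiquitinase studied in immune signalling. It was -0.03 in mouse 1, against -1.06, -1.03 and -1.35 in mice 2 to 4, a mean of -0.87 ± 0.58 (adjusted p = 0.016). Both arrays of mouse 1 were close to the pool and all 6 arrays of the other mice were below it. The F test between mice gave an adjusted p of 0.048, and 0.071 on 7 arrays without the Cy3 array of mouse 4. Usp54 was -0.63, -0.31, -0.56 and -0.76, a mean of -0.56 ± 0.19 (adjusted p = 0.0051), or 1.48-fold lower, and was below 0 on all 8 arrays. Usp9x, a large X-linked deubiquitinase with many substrates, averaged -0.38 ± 0.19 (adjusted p = 0.020), with every mouse between -0.59 and -0.13. Usp47, which acts in base excision repair, averaged -0.31 ± 0.15 (adjusted p = 0.028) over probes at -0.41, which was called, and -0.22, which was not. Usp16, which removes ubiquitin from histone H2A, averaged -0.26 ± 0.11 (adjusted p = 0.036) over probes at -0.50, which was called, and -0.03, which was not. Its mean was -0.46 on the Cy5 and -0.07 on the Cy3 arrays. Neither Usp47 nor Usp16 was called in any fit that left out a mouse.

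The other 18 deubiquitinases were not called. Usp7, which acts on Mdm2 and p53, averaged 0.07 ± 0.04 (adjusted p = 0.44) over 4 probes at -0.09, -0.07, 0.16 and 0.30, of which the last was called. Usp37 had the highest uncalled mean, 0.30 ± 0.36 (adjusted p = 0.12), and 1 of its 3 probes read 4.06 on the Cy3 array of mouse 4 and between -0.15 and 0.33 on the other arrays. Without that array Usp37 averaged 0.13 and Usp50 was called lower (-0.30, adjusted p = 0.026). No member with several probes had probes called in opposite directions, and over 52 pairs of probes of the same member the mean ratios had a Spearman correlation of 0.361.

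Ubr7, which in human cells ubiquitinates histone H2B, was the third member that differed between mice, and the mice fell on both sides of the pool. It was -0.15, 0.73, -0.29 and 0.34 in mice 1 to 4, with both arrays of each mouse on the same side of 0, so its mean of 0.16 ± 0.47 was not called (adjusted p = 0.49). The F test between mice gave an adjusted p of 0.030, and 0.025 on 7 arrays. These 3 members of 76 (Psmb8, Usp25 and Ubr7) compare with 2.78% of all genes that differed between mice.

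The rest of the pathway, a list of activators, ubiquitin-like proteins, ligases and other deubiquitinases, held 54 measured genes of 98 listed. Of these, 9 were called higher and 10 lower, a share of 35.2% against 31.9% of all genes, with a median of -0.04. The 6 highest were Uchl1 (0.48), a deubiquitinase of nerve and endocrine cells, Psme2 (0.48), a subunit of the interferon-inducible proteasome activator, the ligase gene Ube3b (0.45), Skp2 (0.37), which recruits cell cycle inhibitors to a ligase, the deubiquitinase gene Otub1 (0.36) and Nfe2l2 (0.33), a factor of the antioxidant response. Psme2 was 0.80, 0.27, 0.65 and 0.20 in mice 1 to 4, the order of mice seen for Psmb8. The 6 lowest were Sumo2 (-0.68), a ubiquitin-like modifier, Uba6 (-0.61), a ubiquitin E1, Fbxw7 (-0.47), a substrate receptor for cyclin E and Myc, Nae1 (-0.45), part of the NEDD8 E1, the ligase scaffold gene Cul4a (-0.42) and Brcc3 (-0.34), a deubiquitinase of DNA repair complexes. Each of these 12 was above or below the pool in the same direction in all 4 mice, as were 4500 of all 8692 genes. They were picked for passing the test of the mean, which by itself makes a shared direction likely.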

How the data were processed

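Values of 8 two-colour arrays were used. Each probe has a log2 ratio as deposited by the authors. Their background correction and normalization are not given in the labels or file headers. Values beyond 10 in size (498 in all, 2 of them in members) were set to missing, and 706 were missing as deposited. Names come from the platform annotation, whose probe number plus 11 gives the row of the value table: at that offset probes of 1 gene correlated at 0.221 over 4781 pairs (Spearman), against 0.0527 at the best of the other offsets of 121 tried. Numbers above 20237 were left unnamed, among them 7 annotations with member symbols. Names of Psma4 and of 1 probe each of Psmb6 and Usp53 lie where this agreement was weakest. The offset gave 12296 named probes of 20794. Probes of a gene were averaged.

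Means of the 2 arrays of a mouse entered limma 3.58.1 (R 4.3.3), which tested their mean against 0 (two-sided, Benjamini-Hochberg over 8692 genes). Differences between mice used limma's F test on 8 arrays with the dye as covariate, and dye effects the within-mouse difference, over 8645 genes. Precision is limited by having 4 mice and a single pool, and signal over background is unknown. The labels give separate animals as replicates. The fits were tested on simulated data. Promoters came from a RefSeq table. Plots used matplotlib 3.10.9 in Python 3.11.15.

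Genes named are every measured proteasome member, ubiquitin enzymes past the threshold or differing between mice, Psmb8, Psmb9, Ube2c, Usp7, Usp8 and Usp9x, and the 6 highest and 6 lowest other pathway genes past the threshold; Ube2a, Ube2d1, Ube2f, Ube2n, Usp37, Usp50, H2-K1 and Tap1 were added after their values were seen. Members and lists were chosen with earlier results of these data known. Alternatives left out a mouse, a dye or 1 array, and changed centring, moderation, the use of arrays and probes, and names.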

Additional observations from a re-analysis of the deposited data

Results flagged for a closer look

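Of 45 named members checked for a mouse far from the others (the gap to its nearest neighbour as a share of the whole range, by Dixon's criterion), 6 had one. For a single gene chance gives about 1 in 20, but the share over all genes is not given here. The 45 were partly chosen by their calls and share the same 4 mice, so the count cannot be judged against chance. Psmd7 was -0.8885 in mouse 4, against -0.49 to -0.42 in the other mice. Ube2k was -0.483 in mouse 4, against -0.22 to -0.17. Usp47 was -0.533 in mouse 4, against -0.26 to -0.21. These 3 had their lowest value in the mouse whose Cy3 array stood apart, though not always on that array. The Cy5 and Cy3 arrays of mouse 4 read -0.67 and -1.10 for Psmd7, -0.63 and -0.33 for Ube2k, and -0.31 and -0.75 for Usp47. Psmd10, a chaperone that was not called, was -0.204 in mouse 2, against -0.03 to -0.01. Ube2c was 0.0635 in mouse 2, against 0.34 to 0.37. Ube2j2 was 0.6135 in mouse 1, against 0.34 to 0.39. The causes were not tested.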

How the results depend on the processing

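No called gene reversed its direction under the alternatives run. The 13 proteasome calls ranged from 4 to 11 when 1 mouse was left out (1 to 6 higher, against 5, and 3 to 7 lower, against 8), and the 12 ubiquitin enzyme calls from 6 to 8 (3 to 4 higher, against 5, and 2 to 5 lower, against 7). With transgenic RNA in Cy3 only, 8 proteasome genes were called, 0 of them higher, and 5 ubiquitin enzyme genes, 2 higher and 3 lower. With it in Cy5 only, 6 proteasome genes were called higher and 5 lower, and 5 ubiquitin enzyme genes higher and 10 lower. Fewer samples enter each of these fits, and the share of all genes called in them is not given here. The ubiquitin enzyme median of -0.034 ranged from -0.0747 to -0.0269 when a mouse was left out, and was -0.0765 on the Cy5 arrays, -0.0753 on the Cy3 arrays and -0.0759 without the Cy3 array of mouse 4, a setting chosen after seeing the data. The proteasome minus the ubiquitin enzyme median, -0.061 in the report, turned to 0.038 on the Cy5 arrays and 0.0025 without the Cy3 array of mouse 4. Members differing between mice numbered 3, and 1 with no dye term; that cause was not tested. Centring each array, robust moderation and use of values present on all 8 arrays changed none of the calls of 45 named members, while 8 single arrays with the mouse as a random block changed 6: Psma6, Psmb8 and Psmc2 were gained (adjusted p = 0.025, 0.012 and 0.030) and Psmd4, Ube2c and Usp16 lost (0.054, 0.060 and 0.051). With a dye term in that fit 4 changed, and keeping the extreme values as deposited changed 2. The random-block fits apply the same correlation between arrays of a mouse to every gene, so they can overstate replication where mice differ more than arrays. Signal over background is unknown, so neither dim nor saturated probes could be marked. The pool is no set of single animals, so transgenic and wild-type mice could not be paired.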
